A study of Mus musculus with 6 samples.

Results

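The 10 genes described here, *Myh6*, *Myl7*, *Myl4*, *Tnnt2*, *Tnni3*, *Actc1*, *Actn2*, *Ryr2*, *Sln* and *Nppa*, are genes of heart muscle that are used as markers of the cardiomyocytes around the pulmonary veins. They were taken by symbol from the 54532 genes of the deposited counts. Bulk RNA from lung tissue was sequenced from 3 GR+/+ and 3 GRdim/dim mice, 1 library per mouse. GRdim/dim mice carry a point mutation in *Nr3c1*, the glucocorticoid receptor (GR) gene, that impairs dimerization of the receptor in every cell of the body, and GR+/+ mice were their littermates. Both groups were on a 129/SvEv x C57BL/6 background and 10 to 16 weeks old. Mice of both genotypes had been anesthetized, ventilated and bled to 35 mmHg of arterial pressure for 1 h (hemorrhagic shock, HS). Their shed blood was then returned, and they were resuscitated with fluids and norepinephrine over 4 h. No lung without HS was sequenced, so every level below is a level after HS, in GR+/+ as in GRdim/dim. The GR+/+ group held 2 female mice and 1 male mouse, and the GRdim/dim group held 1 female mouse and 2 male mice.

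In the mouse, a sleeve of striated heart muscle extends from the left atrium along the pulmonary veins into the lung. Its cells resemble atrial cardiomyocytes. They contract by sliding of thick filaments (myosin heavy and light chains) along thin filaments (actin and troponins), which are anchored at Z-discs, and each contraction is started by calcium released from the sarcoplasmic reticulum. Whole lung tissue contains these cells beside many other cell types. In such bulk samples, fewer cells of a type and less RNA per cell cannot be told apart.

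RNA of the heart-muscle genes was found in all 6 lungs, and its amount differed widely between mice of the same genotype. Together the 10 genes took 0.0178% to 0.107% of all counts of a library. Their summed level, in counts per 1000000 scaled for library composition by the TMM method (CPM), was 592, 1053 and 181 in GR+/+ replicates 1, 2 and 3 and 703, 469 and 949 in GRdim/dim replicates 1, 2 and 3. GR+/+ replicate 3 was thus the lowest and GR+/+ replicate 2 the highest, a 5.81-fold range, with all 3 GRdim/dim lungs in between. The group means were 609 ± 436 (SD, n = 3) in GR+/+ and 707 ± 240 (SD, n = 3) in GRdim/dim, a difference smaller than the spread within either genotype. The library totals were 15687734 to 32082940 counts. The lung with the lowest heart-muscle level had the largest total, and its lowest count for a tested heart-muscle gene was 147, for *Actn2*.

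To show what these genes hold at their 5′ ends, the promoters of 5 of them are given, chosen because they are the most abundant myosin (*Myh6*), the most abundant transcript per length (*Myl7*), the main thin-filament genes (*Actc1*, *Tnnt2*) and the near-silent hormone gene (*Nppa*). The sequences are RefSeq windows of 300 bases in build GRCm38.p6, from 250 bases before to 50 bases after a transcription start, on the strand of the gene, 5′ to 3′. Capitals mark TATAAA, the CArG box bound by serum response factor, GATA sites and the M-CAT site of TEAD factors (CATTCC). They also mark the T-box site AGGTGT and AGAACA, one arm of the GR response element. For all of these except TATAAA, the reverse complement is marked as well.
Myh6, chr14:54966558-54966857, minus strand: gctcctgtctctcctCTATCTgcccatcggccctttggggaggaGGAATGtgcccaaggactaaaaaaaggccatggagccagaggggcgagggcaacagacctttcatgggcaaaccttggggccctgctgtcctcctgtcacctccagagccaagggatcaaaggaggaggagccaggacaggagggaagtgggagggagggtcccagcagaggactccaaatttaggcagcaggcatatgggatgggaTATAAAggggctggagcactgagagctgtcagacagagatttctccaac
Myl7, chr11:5898733-5899032, minus strand: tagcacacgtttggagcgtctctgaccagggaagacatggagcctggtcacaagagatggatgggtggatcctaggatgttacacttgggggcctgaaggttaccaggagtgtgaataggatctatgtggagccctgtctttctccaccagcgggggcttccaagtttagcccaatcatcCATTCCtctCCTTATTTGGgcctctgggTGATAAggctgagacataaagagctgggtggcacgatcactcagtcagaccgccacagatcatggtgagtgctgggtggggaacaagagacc
Actc1, chr2:114052826-114053125, minus strand: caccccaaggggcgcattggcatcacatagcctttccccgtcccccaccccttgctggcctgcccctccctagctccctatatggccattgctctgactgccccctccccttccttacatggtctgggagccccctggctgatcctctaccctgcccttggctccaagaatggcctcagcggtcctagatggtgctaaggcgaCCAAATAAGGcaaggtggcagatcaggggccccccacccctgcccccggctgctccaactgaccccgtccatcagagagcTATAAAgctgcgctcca
Tnnt2, chr1:135836084-135836383, plus strand: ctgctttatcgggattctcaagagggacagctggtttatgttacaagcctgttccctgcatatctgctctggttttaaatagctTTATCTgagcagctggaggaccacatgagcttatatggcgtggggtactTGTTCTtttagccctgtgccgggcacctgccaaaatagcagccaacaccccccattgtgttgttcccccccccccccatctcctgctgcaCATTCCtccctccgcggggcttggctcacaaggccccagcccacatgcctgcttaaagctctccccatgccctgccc
Nppa, chr4:148000472-148000771, plus strand: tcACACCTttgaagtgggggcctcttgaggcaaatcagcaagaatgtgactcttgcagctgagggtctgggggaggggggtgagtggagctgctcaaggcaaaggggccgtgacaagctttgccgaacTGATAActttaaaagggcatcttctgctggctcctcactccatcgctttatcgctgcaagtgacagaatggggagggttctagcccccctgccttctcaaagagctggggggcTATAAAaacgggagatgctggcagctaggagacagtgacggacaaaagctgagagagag

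RefSeq windows matched 9 of the 10 genes, with 10 windows in all since *Tnnt2* had more than 1 start. *Sln* was not matched. The CArG box, a site of muscle and serum-response genes, was present in 2 of the 10 windows (*Actc1* and *Myl7*) and in 1.63% of all 32851 RefSeq promoter windows of the mouse. TATAAA on the strand of the gene was present in 3 of 10 (*Myh6*, *Actc1* and *Nppa*) against 8.32% of all windows, and it lay after the listed start in *Myh6* and *Actc1*. GATA sites (the letters GATA after an A or T and before an A or G, on either strand) were found in 4 of 10 against 29.8%. The M-CAT letters were found on either strand in 3 of 10 against 14.7%, and the T-box letters in 2 of 10 (*Tnni3* and *Nppa*) against 13.7%. None of the 10 windows held the MEF2 site, which 3.19% of all windows held. The full GR response element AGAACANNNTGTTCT was in none of the 10 and in 3 of all windows. The single arm AGAACA was in 2 of 10 (*Tnnt2* and *Myl4*) against 19.0%. These are matches of letters in a short window. They do not show binding, and a window without a match says nothing about the factor.

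Among the thick-filament genes, *Myh6* (chr14:54941921-54966927, minus strand, build GRCm38), the alpha myosin heavy chain that drives fast contraction of atrial and adult mouse heart muscle, had the most counts of the 10 genes. Its CPM was 272, 478 and 55.5 in GR+/+ replicates 1 to 3 and 288, 194 and 315 in GRdim/dim replicates 1 to 3. By CPM, which is not scaled for transcript length, the mean of the 6 lungs lay at percentile 96.5 of all genes tested. GR+/+ replicates 2 and 3 held the highest and the lowest value, 8.61-fold apart, and the groups overlapped.
*Myl7* (chr11:5896637-5898782, minus strand), the atrial regulatory light chain, stood at 45.5, 96.4 and 16.1 CPM in GR+/+ and at 45, 23.3 and 94.5 CPM in GRdim/dim lungs. GRdim/dim replicate 3 and GR+/+ replicate 2 were high and nearly equal. *Myl4* (chr11:104550663-104595753, plus strand), the atrial essential light chain, had 57.8, 97.2 and 19.4 CPM in GR+/+ and 58.0, 38.5 and 126 CPM in GRdim/dim lungs. For both light chains, GR+/+ replicate 3 was the lowest lung and the groups overlapped.

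Among the thin-filament genes, *Tnnt2* (chr1:135836354-135852260, plus strand), the cardiac troponin T that ties the troponin complex to tropomyosin, had 69.3, 112 and 21.3 CPM in GR+/+ and 67.7, 51.9 and 127 CPM in GRdim/dim lungs. *Tnni3* (chr7:4518305-4524229, minus strand), the inhibitory cardiac troponin I, had 33.5, 64.5 and 18.6 CPM in GR+/+ and 38.5, 28.2 and 84.5 CPM in GRdim/dim lungs. Both troponins were highest in GRdim/dim replicate 3 and lowest in GR+/+ replicate 3. *Actc1* (chr2:114047282-114053548, minus strand), the cardiac alpha actin, had 57.8, 118 and 21.1 CPM in GR+/+ and 128, 87.6 and 119 CPM in GRdim/dim lungs. It was the only one of these 3 genes with its highest value in GRdim/dim replicate 1, and GR+/+ replicate 2 lay within the GRdim/dim range. At the Z-disc, *Actn2* (chr13:12269426-12340760, minus strand), the alpha-actinin that cross-links thin filaments, had 20.9, 32.7 and 4.67 CPM in GR+/+ and 26.3, 17.4 and 35.5 CPM in GRdim/dim lungs. Its range of 7.59-fold was second only to that of *Myh6* among the 9 genes tested.

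Of the calcium-handling genes, *Ryr2* (chr13:11553102-12106945, minus strand), the calcium release channel of the sarcoplasmic reticulum, had 23.2, 36.6 and 19.4 CPM in GR+/+ and 29.6, 15.0 and 19.4 CPM in GRdim/dim lungs. It varied only 2.45-fold. Unlike the other 8 genes tested, it was lowest in GRdim/dim replicate 2, and GR+/+ replicate 3 and GRdim/dim replicate 3 had nearly the same value. *Sln* (chr9:53850164-53854560, plus strand), the small inhibitor of the SERCA calcium pump typical of atrial muscle, had 12.4, 17.3 and 5.08 CPM in GR+/+ and 22.4, 13 and 28.0 CPM in GRdim/dim lungs. GRdim/dim replicates 1 and 3 were above every GR+/+ lung, while GRdim/dim replicate 2 lay between GR+/+ replicates 1 and 2.

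*Nppa* (chr4:148000722-148002079, plus strand), which encodes the atrial natriuretic peptide and is among the most abundant RNAs of atrial myocytes, was nearly absent. Its counts were 8, 4 and 2 in GR+/+ and 4, 0 and 11 in GRdim/dim lungs, at most 0.710 CPM. The count of 0 in GRdim/dim replicate 2 allows a level of up to 0.125 CPM, from 3 counts of that library and for counting error only. *Nppa* was below the filter on low counts and was not tested. In addition, 56.8% of its 31-base windows lie in *Gm13054*, an antisense gene that overlaps 532 of its exon bases, and the use of strand in counting is not given in the sources used here, so that these few counts cannot be assigned with certainty.

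**Figure D1:**
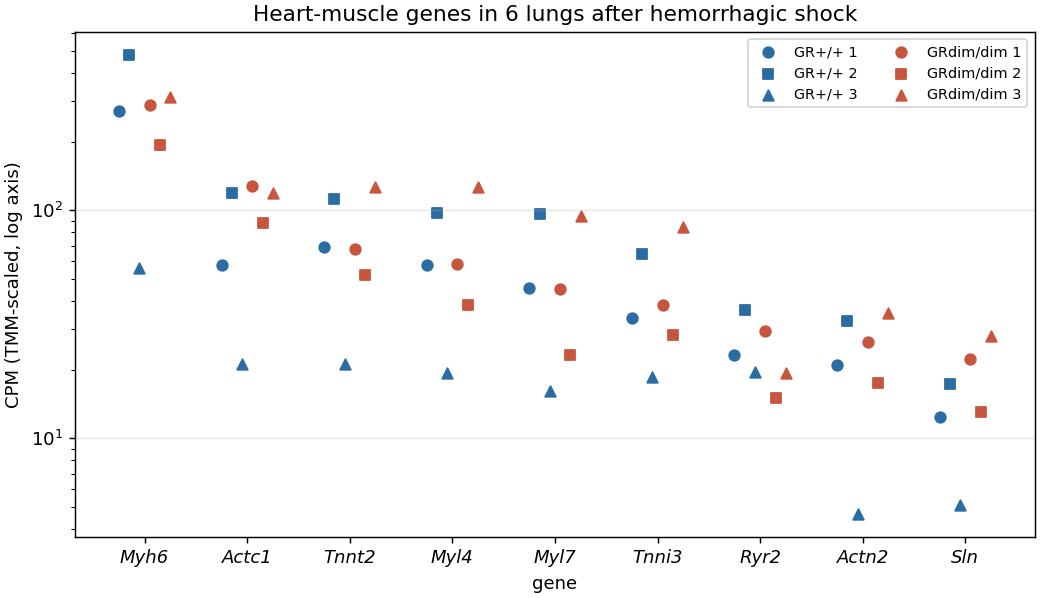
Level of the 9 tested heart-muscle genes (x axis) in each lung, in TMM-scaled CPM on a log axis, with GR+/+ in blue, GRdim/dim in red and the replicate number as the shape. GR+/+ replicate 3 is the lowest lung for 8 of the 9 genes, and the genotypes overlap for every gene.

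Levels of different genes were compared per length of 1 reference transcript per gene. The mean over 6 lungs, in CPM per kb of transcript, was 90.6 ± 58.5 (SD) for *Myl7*, 70.2 ± 41.6 for *Myl4*, 62.3 ± 32.3 for *Tnnt2*, 60.2 ± 28.6 for *Actc1*, 49.0 ± 27.2 for *Tnni3* and 43.7 ± 22.8 for *Myh6*. Neighbours in this order differed by less than their spread, and the higher of each pair was higher in only 2 to 5 of the 6 lungs. Below them stood *Sln* at 12.4 ± 6.13, *Actn2* at 7.60 ± 3.73, *Ryr2* at 1.42 ± 0.471 and *Nppa* at 0.329 ± 0.308, and each of these was below its upper neighbour in 6 of 6 lungs. The order depends on the length assumed. With the deposited gene lengths, which join all exons of a gene, *Actc1* had 54.8, *Myh6* 39.7, *Tnni3* 21.6, *Myl4* 14.3, *Sln* 12.4 and *Tnnt2* 9.64 CPM per kb, so that *Sln* no longer stood below all of the upper 6 genes.

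None of the heart-muscle genes passed the test for a difference between genotypes, for which edgeR's quasi-likelihood method was used and p-values were adjusted by Benjamini-Hochberg over the 16568 genes with enough counts. Of the 9 genes tested, 0 passed an adjusted p-value under 0.05 with a log2 fold change beyond 0.5, where 0.169% of all genes passed in either direction, 0.0724% as higher and 0.0966% as lower in GRdim/dim. At an unadjusted p-value under 0.05 the count was also 0 of 9, against 9.60% of all genes. DESeq2 called 0 of 9, against 1.71% of all genes, and gave 1 gene, *Sln*, an unadjusted p-value under 0.05, against 10.2%. The libraries of the genotypes overlapped for all 10 genes, while 14.8% of the genes tested showed no overlap. Read against these low shares, a count of 0 of 9 is no result about the heart-muscle genes in particular.

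The largest differences belonged to *Sln* and *Actc1*. The log2 fold change of GRdim/dim over GR+/+ was 0.87 (SE 0.42, 95% interval -0.06 to 1.81) for *Sln*, with an adjusted p-value of 0.557 from edgeR and 0.387 from DESeq2. It was 0.76 (SE 0.51, 95% interval -0.42 to 1.94) for *Actc1*, with an adjusted p-value of 0.714. GRdim/dim replicate 1 and, by little, replicate 3 exceeded every GR+/+ lung in *Actc1* level. The groups overlapped, since GR+/+ replicate 2 exceeded GRdim/dim replicate 2.
For *Myh6* the log2 fold change was -0.02 (SE 0.64), and its 95% interval ran from 0.352-fold to 2.78-fold. An equal level is therefore not shown, and a difference of either direction within that interval is compatible with these data. *Myl7* (0.04), *Tnnt2* (0.29), *Myl4* (0.36), *Tnni3* (0.38) and *Actn2* (0.45) had standard errors of 0.50 to 0.70 and adjusted p-values of 0.881 to 0.993. *Ryr2* had the narrowest interval, with a log2 fold change of -0.31 (SE 0.30, 95% interval -0.98 to 0.37). In all, 7 of the 9 values were above 0, where 50.9% of all genes were, and their median was 0.36, where that of all genes was 0.01. These genes vary together, so that the 9 values are not independent.

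This small lean towards GRdim/dim depended on single lungs. Without GR+/+ replicate 3, only 3 of the 9 log2 fold changes stayed above 0 and the median was -0.06. Without GRdim/dim replicate 3 it was likewise 3 of 9, with a median of -0.17. Without GR+/+ replicate 2, all 9 were above 0 with a median of 0.96, and the lowest adjusted p-value among the 9 genes was 0.329 by edgeR. Genotype and sex were unequally combined in these groups, and with a covariate for sex-linked expression the median was 0.04.

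**Figure D2:**
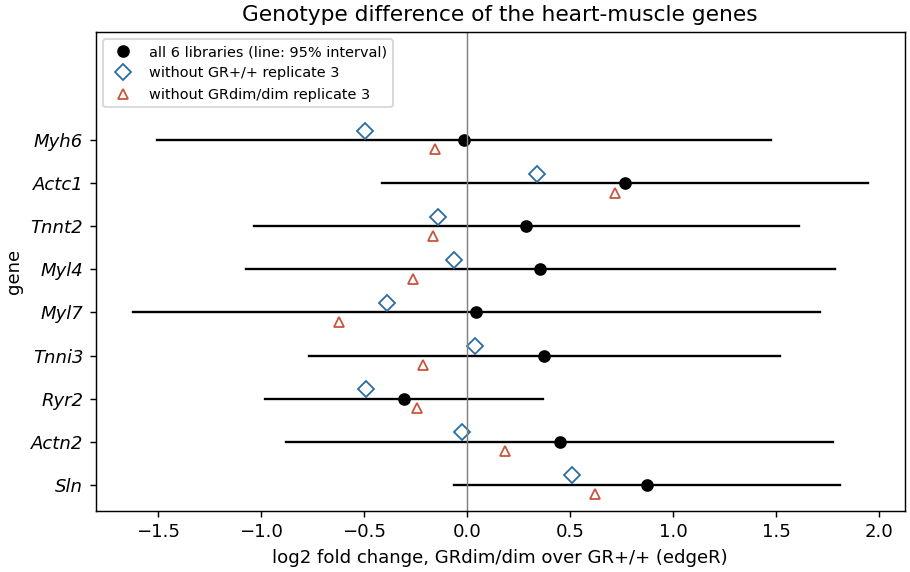
Log2 fold change of GRdim/dim over GR+/+ from edgeR (x axis) for each of the 9 tested heart-muscle genes, as black points with 95% intervals, beside the values without GR+/+ replicate 3 (blue diamonds) and without GRdim/dim replicate 3 (red triangles). Every interval includes 0, and *Sln* and *Actc1* stay above 0 in all 3 sets of points.

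The heart-muscle genes had a wide spread between mice of one genotype. The within-group SD of log2 CPM was 1.17 for *Myh6*, 1.16 for *Myl7*, 1.09 for *Actn2*, 1.04 for *Myl4* and 0.75 for *Sln*, against a median of 0.30 over all genes tested. These values lay between percentile 93.1 (*Sln*) and percentile 98.7 (*Myh6*) of all genes for every tested gene except *Ryr2*, which stood at percentile 77.4. Such a spread was not particular to them, and *Mybpc3* and *Mb* of striated muscle, *Plin1* of adipocytes and *Slc4a1* of erythroid cells stood at percentiles 99.4 to 99.9. The ranges between the lowest and the highest lung were 5.50-fold for *Sln*, 5.95-fold for *Tnnt2*, 5.97-fold for *Myl7*, 6.06-fold for *Actc1*, 6.52-fold for *Myl4* and 4.53-fold for *Tnni3*. GR+/+ replicate 3 was the lowest lung in 8 of the 9 genes, as it was in 19.8% of all genes tested. The highest value fell in GR+/+ replicate 2 or GRdim/dim replicate 3 in 8 of 9, as it did in 34.9% of all genes.

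The genes moved together over the 6 lungs. Over 28 pairs without *Ryr2*, Pearson's r of log2 CPM was 0.753 to 0.990 with a median of 0.907, and *Ryr2* correlated with the other 8 at 0.310 to 0.583. The pairs share the same 6 libraries and are a description. Against *Myh6*, 8 relations were tested by exact permutation, two-sided. *Actn2* had r = 0.974 (exact permutation p = 0.00556, adjusted 0.0194) and rho = 0.943 (exact p = 0.0167, adjusted 0.0333), and r was 0.881 without the 2 lungs farthest from the median *Myh6* level, GR+/+ replicates 2 and 3. *Myl7* followed with r = 0.878 (exact permutation p = 0.00278, adjusted 0.0194) and rho = 0.943 (exact p = 0.0167, adjusted 0.0333), and r was 0.921 without these lungs. *Tnnt2*, *Myl4* and *Tnni3* had r of 0.824 to 0.948, rho of 0.886 to 0.943 and r of 0.752 to 0.839 without these lungs. Their adjusted exact permutation p-values were 0.0194 to 0.0378 for r and 0.0333 to 0.0533 for rho. For *Actc1*, r = 0.906 (adjusted exact permutation p = 0.0444) dropped to 0.331 without these lungs and rho was 0.714 (adjusted exact p = 0.156), so that this relation rests on them. *Sln* had r = 0.861 and rho = 0.771 (adjusted exact permutation p = 0.0540 and 0.137), with r = 0.726 without these lungs. *Ryr2* had r = 0.546 and rho = 0.543 (adjusted exact permutation p = 0.264 and 0.297), and r = 0.673 without them.

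Beside this shared movement the mixture of the heart-muscle RNAs was not constant. The CPM ratio of *Actc1* to *Myh6* was 0.213, 0.248 and 0.380 in GR+/+ and 0.444, 0.452 and 0.378 in GRdim/dim lungs. The genotypes overlapped through the replicates numbered 3, which had almost the same ratio. The ratio of *Tnni3* to *Myh6* was 0.123, 0.135 and 0.336 in GR+/+ and 0.134, 0.146 and 0.268 in GRdim/dim lungs, so that here also both replicates numbered 3 stood above the rest. The same lungs were highest for the ratios of *Tnnt2*, *Myl7* and *Myl4* to *Myh6*. *Ryr2* was different, with a ratio of 0.350 in GR+/+ replicate 3 and of 0.0616 to 0.103 in the other 5 lungs. *Myh6* itself made up 30.6% to 45.9% of the summed CPM of the 10 genes.

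A length-related difference between libraries ran beside these ratios. Over all genes tested, the 4142 shortest by deposited gene length lay a median of 0.25 (log2) above their means over 6 libraries in GRdim/dim replicate 3, and the 4142 longest had a median of -0.21. In the other 5 libraries the median of the longest minus that of the shortest was -0.03 to 0.20, against -0.45 in GRdim/dim replicate 3. In that lung the light-chain and troponin RNAs were high relative to *Myh6* and *Ryr2* was low. By reference transcript, the light-chain and troponin RNAs are shorter (590 to 1200 bases) than that of *Myh6* (6113 bases). By deposited length, which this measure uses, *Tnnt2* has 7752 bases and *Myh6* 6726 bases. In GR+/+ replicate 3 the difference by length was -0.03, and the ratios of the light chains and troponins to *Myh6* were high. The part of length in the ratios was not tested.

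**Figure D3:**
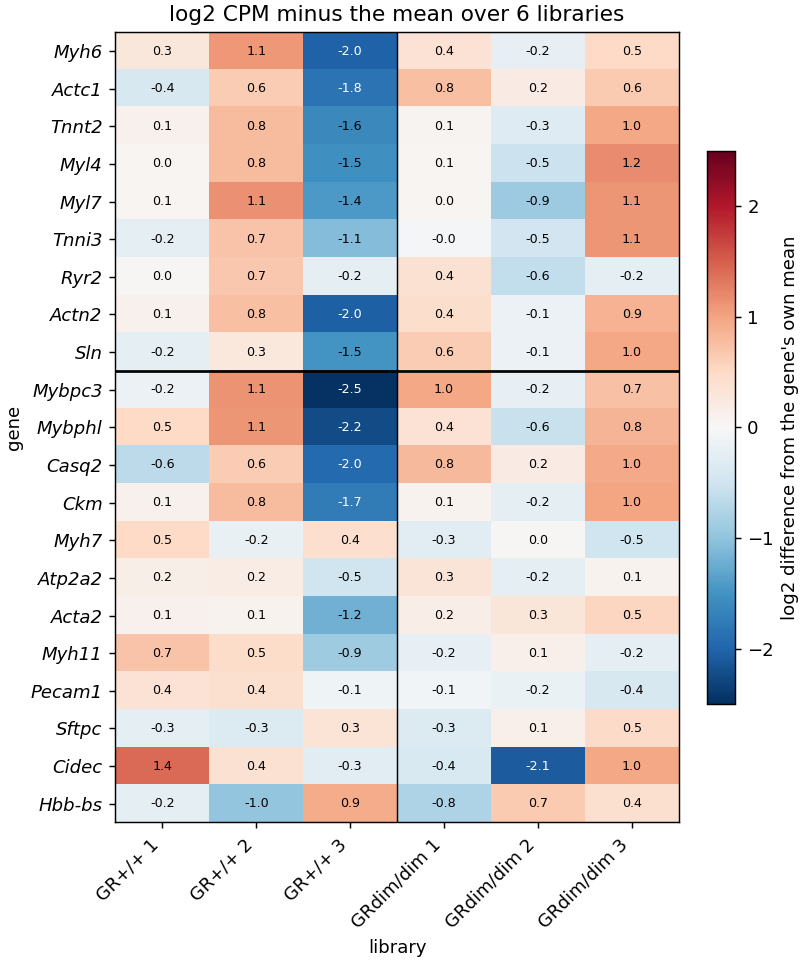
Log2 CPM minus the mean of the gene over the 6 libraries (colour and printed value), for the 9 tested heart-muscle genes above the thick line and other muscle or lung genes below it, with GR+/+ lungs left and GRdim/dim lungs right of the vertical line. *Mybpc3*, *Mybphl*, *Casq2* and *Ckm* share the low GR+/+ replicate 3 of the heart-muscle genes, and *Myh7*, *Atp2a2*, *Pecam1* and *Sftpc* do not show it to the same depth.

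The paralogs of the 10 genes, chosen after their values were seen, were mostly far below them. Levels here are means of 6 lungs in CPM per kb of transcript. *Myl7* and *Myl4*, the atrial light chains, stood at 90.6 and 70.2, the ventricular light chains *Myl2* and *Myl3* at 0.0967 and 4.56, and the fast skeletal light chains *Mylpf* and *Myl1* at 1.95 and 1.85. Cardiac *Tnnt2* stood at 62.3, against 1.97 for slow skeletal *Tnnt1* and 2.70 for fast skeletal *Tnnt3*. Cardiac *Tnni3* stood at 49.0, against 0.0647 for *Tnni1* and 1.07 for *Tnni2*. Skeletal alpha actin, *Acta1*, was at 0.419 and skeletal *Actn3* at 0.248, and the other ryanodine receptors *Ryr1* and *Ryr3* were at 0.106 and 0.121. *Acta2*, the smooth-muscle alpha actin, stood at 84.8 and is a gene of vessel and airway walls. The other natriuretic peptide genes, *Nppb* and *Nppc*, were at 0.0195 and 0.217, as low as *Nppa*.

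*Myh7*, the slow beta myosin heavy chain, did not follow *Myh6*. Its CPM was 41.6, 25.9 and 39.5 in GR+/+ and 24.7, 30.4 and 21.1 in GRdim/dim lungs, with a log2 fold change of -0.49 (SE 0.23, adjusted p = 0.550 by edgeR). GR+/+ replicate 3, the lowest lung for *Myh6*, was the second highest for *Myh7*. *Myh6* and *Myh7* share 32.3% of the 31-base windows of the *Myh6* transcript, so that reads there could be counted for either gene or dropped. *Myl3*, the ventricular essential light chain, had 2.39, 3.60 and 0.889 CPM in GR+/+ and 5.66, 5.36 and 7.75 CPM in GRdim/dim lungs. The groups did not overlap, and the log2 fold change was 1.47 (SE 0.46), but it did not pass the adjustment (edgeR adjusted p = 0.341, DESeq2 adjusted p = 0.0642). *Pln*, the phospholamban that regulates the same pump as *Sln*, had 2.57, 7.07 and 0.762 CPM in GR+/+ and 9.22, 4.15 and 6.46 CPM in GRdim/dim lungs and was, like *Sln*, lowest in GR+/+ replicate 3.

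**Figure D4:**
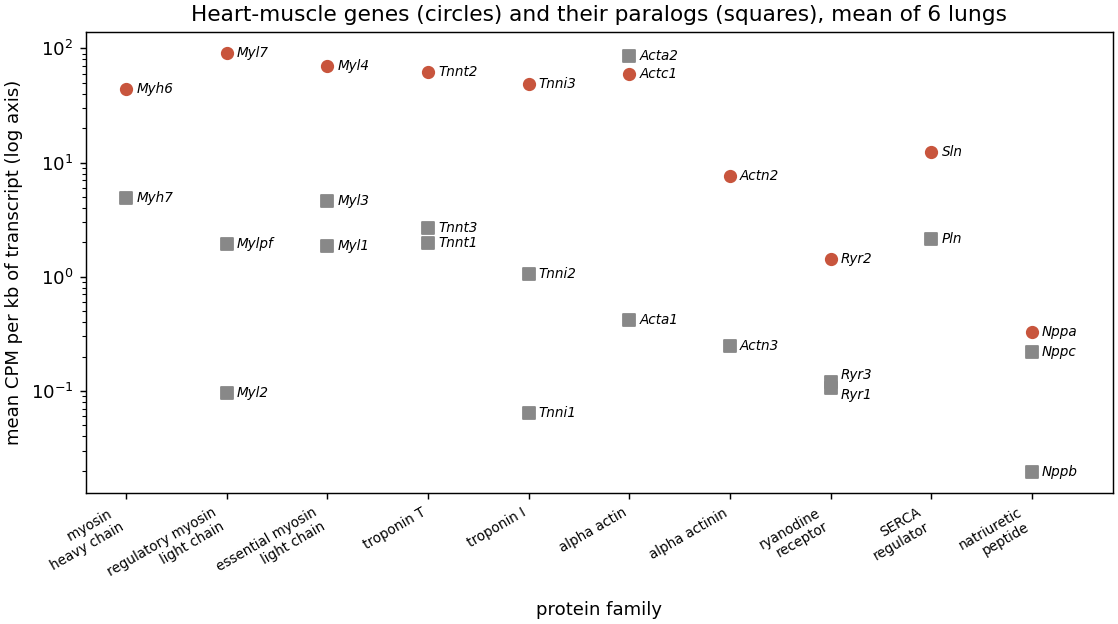
Mean level over 6 lungs, in CPM per kb of transcript on a log axis, of the 10 heart-muscle genes (red circles) and of their paralogs (grey squares), by protein family. *Acta2* is the only paralog above its heart-muscle gene, and *Nppa* is the lowest of the 10 heart-muscle genes.

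Other genes of heart muscle were read from fixed lists. Of 19 further sarcomere and Z-disc genes, all 19 were tested, and edgeR and DESeq2 called 0, with 0 at an unadjusted p-value under 0.05 in either tool. Their median log2 fold change was 0.21. GR+/+ replicate 3 was the lowest lung for 16 of the 19, and GR+/+ replicate 2 or GRdim/dim replicate 3 the highest for 16 of the 19. *Mybpc3*, the cardiac myosin-binding protein, had 9.08, 21.9 and 1.81 CPM in GR+/+ and 19.7, 8.77 and 16.9 CPM in GRdim/dim lungs, a 12.1-fold range. *Ttn*, the giant spring protein titin, had 37.6, 67.6 and 16.7 CPM in GR+/+ and 61.5, 37.8 and 41.5 CPM in GRdim/dim lungs. The most abundant genes of the list, *Tpm1* and *Nebl*, were not lowest in GR+/+ replicate 3. *Tpm1*, a tropomyosin found in many cell types, lay between 308 and 463 CPM, and *Nebl* lay between 272 and 470 CPM. *Tpm1* was highest in GRdim/dim replicate 3. *Des*, the next most abundant, had 140, 157 and 69.3 CPM in GR+/+ and 96.9, 114 and 176 CPM in GRdim/dim lungs. It was thus lowest in GR+/+ replicate 3 and highest in GRdim/dim replicate 3.

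Of 15 further calcium-handling genes, 0 were called by either tool, and 1, *Fkbp1b*, which binds the ryanodine receptor, had an unadjusted p-value under 0.05 by edgeR (log2 fold change -0.94, adjusted p = 0.417). GR+/+ replicate 3 was lowest for 9 of the 15. *Casq2*, the calcium buffer of the cardiac reticulum, had 4.0, 9.71 and 1.62 CPM in GR+/+ and 11, 7.19 and 12.1 CPM in GRdim/dim lungs. *Atp2a2*, the SERCA pump of heart and many other cells, ranged from 351 to 623 CPM and had its lowest value in the same lung.
Of 12 cardiac transcription factors, 0 were called by either tool, with 0 at an unadjusted p-value under 0.05. *Nkx2-5*, the homeobox factor of cardiac muscle, had 0.478, 1.14 and 0.0635 CPM in GR+/+ and 1.13, 0.582 and 1.23 CPM in GRdim/dim lungs. It was low in every lung and lowest in GR+/+ replicate 3. The more abundant *Mef2a* (142 to 208 CPM), *Gata6* (50.8 to 78.7 CPM) and *Srf* (54.1 to 72.8 CPM) are also used by other cells.

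The label of the gene set was compared with further markers. Of 13 other atrial genes, 10 were tested, 0 were called by either tool, 1 (*Gja5*) had an unadjusted p-value under 0.05, and GR+/+ replicate 3 was lowest for 9 of the 10. *Mybphl*, an atrial myosin-binding protein, had 8.90, 13.5 and 1.33 CPM in GR+/+ and 8.09, 4.28 and 11.3 CPM in GRdim/dim lungs. *Kcnj3*, a subunit of the atrial acetylcholine-gated potassium channel, had 2.93, 5.04 and 0.222 CPM in GR+/+ and 6.74, 2.66 and 4.26 CPM in GRdim/dim lungs. *Bmp10*, a secreted factor of the atria, had no count in any library, and *Nppb* was at or near 0 in all 6. *Gja5*, a gap junction gene of atrial muscle and arterial endothelium, had a log2 fold change of 0.79 (SE 0.24) that missed the adjusted threshold (edgeR adjusted p = 0.312, DESeq2 adjusted p = 0.107). Of 6 ventricular genes, 4 were tested and 0 called by either tool, with 2 (*Myl3* and *Scn4b*) at an unadjusted p-value under 0.05, *Irx4* at 0 in every library and *Myl2* at no more than 0.360 CPM. Contractile genes of atrial muscle were thus measured in every lung, whereas the secreted factors of the atria, *Nppa*, *Nppb* and *Bmp10*, were at or near 0 at this depth.

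Of the pacemaker list, 3 of 6 genes were tested and edgeR called 0, with 1 (*Tbx3*) at an unadjusted p-value under 0.05. *Tbx3* had 253, 262 and 156 CPM in GR+/+ and 132, 138 and 96.1 CPM in GRdim/dim lungs, with no overlap. The log2 fold change was -0.87 (SE 0.23), with an adjusted p-value of 0.251 by edgeR and 0.0378 by DESeq2. *Tbx3* is also a gene of lung mesenchyme, and the other pacemaker genes *Hcn4*, *Shox2* and *Isl1* were under 1 CPM in every lung. Of 12 cardiac ion channels and gap junctions, 10 were tested and 0 called by either tool, with 1 (*Gja5*) at an unadjusted p-value under 0.05. Of 10 striated-muscle energy genes, 0 were called and 0 had an unadjusted p-value under 0.05 by either tool. GR+/+ replicate 2 or GRdim/dim replicate 3 was the highest lung for 10 of these 10. *Ckm*, the muscle creatine kinase, had 6.33, 10.1 and 1.75 CPM in GR+/+ and 6.25, 4.98 and 11.6 CPM in GRdim/dim lungs.

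Unlike *Nppa*, the receptors of the natriuretic peptides had many counts. Of 6 other genes of this system, the peptide genes *Nppb* and *Nppc* were too low to test, and of the 4 processing and receptor genes edgeR called 0, with 1 (*Npr3*) at an unadjusted p-value under 0.05. *Npr3*, the clearance receptor, had 83.4, 92.3 and 111 CPM in GR+/+ and 393, 128 and 272 CPM in GRdim/dim lungs, with no overlap. The log2 fold change of 1.47 (SE 0.34) had an adjusted p-value of 0.181 by edgeR and 0.00179 by DESeq2. *Npr1*, the signalling receptor for the atrial peptide, lay between 161 and 236 CPM. *Corin*, the protease that activates the peptide, had 5.32, 7.31 and 1.46 CPM in GR+/+ and 5.77, 3.24 and 4.91 CPM in GRdim/dim lungs and was lowest in the same lung as the heart-muscle genes.

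Markers of other cell types moved in part with the heart-muscle genes. The summed CPM of 8 smooth-muscle genes was 623, 556 and 224 in GR+/+ and 475, 536 and 608 in GRdim/dim lungs, and 6 of 8 were lowest in GR+/+ replicate 3. The summed CPM of 7 adipocyte genes was 46.2, 57.7 and 14.1 in GR+/+ and 16.4, 5.03 and 44.2 in GRdim/dim lungs, with *Ucp1* at 19.3 CPM in GR+/+ replicate 2 and at or near 0 in the other 5. Without *Ucp1*, the adipocyte sum of GR+/+ replicate 2 was below those of GR+/+ replicate 1 and GRdim/dim replicate 3, and the sum was lowest in GRdim/dim replicate 2. Fast skeletal muscle genes summed to 10.3 to 21.2 CPM over 15 genes, so that skeletal muscle RNA was low in every lung. Slow skeletal genes summed to 38.0 to 53.1 CPM over 6 genes, with *Myh7* the highest of them in 5 of 6 lungs and *Tnnc1* in GRdim/dim replicate 3. *Myh7* is also on the ventricular list and *Tnnc1* on the list of heart sarcomere genes. *Tnnt1*, *Myh7b* and *Tnni1* had means of 2.02, 0.878 and 0.0744 CPM, so that the sum does not show slow skeletal muscle RNA in particular. Alveolar type 2 genes, with 0 of 7 lowest in GR+/+ replicate 3, summed to 17142 to 25136 CPM in GR+/+ and 17205 to 25493 CPM in GRdim/dim lungs. Endothelial genes summed to 2769 to 4216 CPM in GR+/+ and 3164 to 3575 CPM in GRdim/dim lungs, with GR+/+ replicate 3 the lowest. Erythroid genes summed to 1110 to 4150 CPM in GR+/+ and 1728 to 4365 CPM in GRdim/dim lungs and were lowest in GR+/+ replicate 2. B-cell genes summed to 84.1 to 173 CPM in GR+/+ and 203 to 717 CPM in GRdim/dim lungs. The edgeR test called 0 genes of each of these lists, and DESeq2 called 1 endothelial and 1 B-cell gene. At an unadjusted p-value under 0.05, edgeR counted 1 smooth-muscle, 3 endothelial, 5 B-cell and 1 erythroid gene, and 0 alveolar type 2, adipocyte and skeletal muscle genes. The part of these other tissues, or of the piece of lung taken, in the levels of the heart-muscle genes was not tested.

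**Figure D5:**
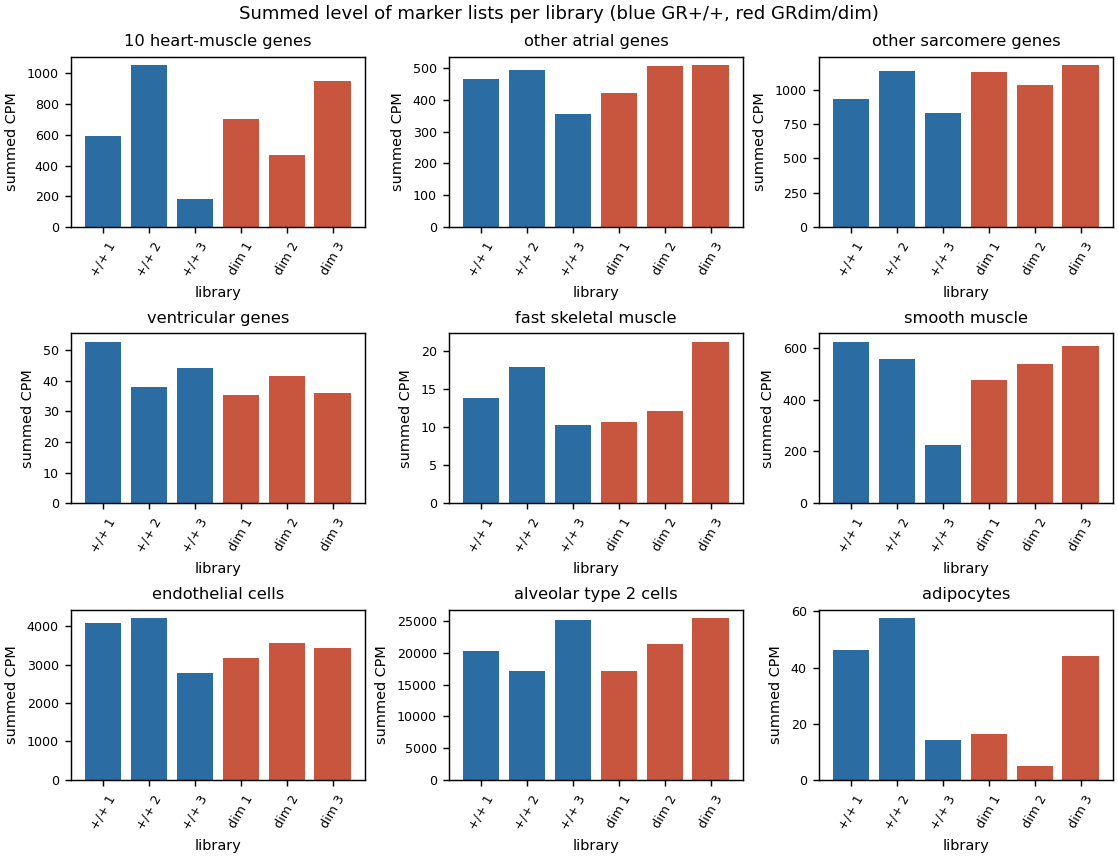
Summed CPM of the heart-muscle genes and of 8 marker lists (one panel each, each with its own y axis from 0) in every library, with GR+/+ in blue and GRdim/dim in red. The bar of GR+/+ replicate 3 is the lowest in the heart-muscle, other atrial, other sarcomere, fast skeletal, smooth-muscle and endothelial panels. It is not the lowest for ventricular genes, alveolar type 2 cells or adipocytes. Most of the other atrial sum came from *Nr2f2*, *Dkk3* and *Stard10* (means of 141, 99.9 and 96.6 CPM). *Mybphl* and *Kcnj3* had means of 7.90 and 3.64 CPM. Most of the other sarcomere sum came from *Tpm1*, *Nebl* and *Des* (350, 343 and 126 CPM). These 2 panels therefore mainly show their few abundant genes.

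The genes whose log2 CPM over the 6 lungs was most like the mean of the 9 heart-muscle genes were sought among 15326 other tested genes with a mean of at least 1 CPM. Of these, 212 had r of at least 0.9 and 65 of at least 0.95, over 6 libraries and without a test. The highest 10 were *Araf* (r = 0.993), *Ralgds* (0.992), *Tubb4a* (0.989), *2810013P06Rik* (0.989), *Def8* (0.987), *Ckm* (0.986), *Mlip* (0.986), *Mpg* (0.986), *Gm13341* (0.986) and *2610035D17Rik* (0.985). *Ckm* and *Mlip* are genes of striated muscle, and their ranges were wide, 1.75 to 11.6 CPM and 0.413 to 3.12 CPM. *Araf*, a widely expressed kinase, had nearly the same order of lungs within a narrow range of 95.8 to 131 CPM. With 6 libraries, a high r among so many candidates does not single out a gene.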

How the data were processed

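Lung RNA of 3 GR+/+ and 3 GRdim/dim mice was sequenced by a commercial provider after poly(A) capture. The authors deposited whole-number read counts per gene, without normalization or pooling. The submitters' processing notes name build mm10 and DESeq2. The aligner, the counting tool, the annotation and the use of strand are not given in the sources used here. The deposited gene length (all exons of a gene) served for the sets of short and long genes and for a second set of levels per kb, named where given. All 10 genes had the same coordinates in GENCODE M21 of GRCm38.

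Counts were analysed with edgeR 4.0.16 in R 4.3.3 (filterByExpr, then TMM scaling of the kept genes, glmQLFit with robust=TRUE and glmQLFTest). The p-values of the 16568 genes tested were adjusted by Benjamini-Hochberg. Genes were called at an adjusted p-value under 0.05 with a log2 fold change beyond 0.5. For log2 CPM a prior count of 2 was used. DESeq2 1.42.0, the tool the authors used, was an alternative on the same filtered counts and gave an adjusted p-value for 15917 genes. Libraries of a genotype differed by 20.9 to 70.1 per degree of freedom in a chi-square test of their counts, where sampling noise alone gives about 1, and were used as separate replicates. Each is 1 mouse, so that the tests weigh the genotype difference against the spread between libraries. That spread holds differences between mice together with those of the lung piece and of the library.

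The 10 genes and the lists were chosen with earlier results of these data known. The rule named all 10 genes, the most abundant or called genes of a list and the 10 genes most like them in pattern. Other genes of the lists, and the paralogs, were named after their values were seen. All other levels per kb and shared sequence used 1 GENCODE M21 transcript per gene and windows of 31 bases. The alternatives were RLE and upper-quartile scaling, 2 other filters, DESeq2, a replicate block, a sex-linked covariate, no fold threshold, and each library left out in turn.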

Additional observations from a re-analysis of the deposited data

How the results depend on the processing

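In every alternative, 0 of the heart-muscle genes were called higher and 0 lower. Their adjusted p-values ranged from 0.0587 (*Sln*, no filter on low counts) upwards. Under these alternatives, 15 log2 fold changes of single genes turned direction, and so did the median without GR+/+ replicate 3 (-0.06) and without GRdim/dim replicate 3 (-0.17). The median log2 fold change of the 9 genes was 0.35 to 0.39 with other scalings, at least 10 counts in every library, DESeq2 or the replicate block, 0.32 over 10 genes with no filter on low counts, and 0.04 with the sex-linked covariate. With 1 library left out it was -0.17 to 0.96. The 28 genes called among all genes became 522 with no filter on low counts, 272 with DESeq2 and 4 to 22 with 1 library left out (4 without GR+/+ replicate 2).

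With the replicate block, the log2 fold change of *Myh6* was 0.38, 34 genes were called among all genes, and no call among the heart-muscle genes changed. Deviations of libraries with the same replicate number correlated at 0.22, 0.04 and -0.05. So few values cannot decide whether the numbers pair the mice. The replicate block is a fit to a shared number only. With the sex-linked covariate, *Myl7* had -0.37. With 1 library left out, the log2 fold changes ran from -0.50 to 0.71 for *Myh6*, -0.62 to 0.83 for *Myl7*, -0.26 to 0.96 for *Myl4*, -0.17 to 0.87 for *Tnnt2*, -0.22 to 0.96 for *Tnni3*, -0.02 to 1.07 for *Actn2* (-0.024 without GR+/+ replicate 3) and -0.61 to 0.0059 for *Ryr2*. Those of *Actc1* (0.34 to 1.51) and *Sln* (0.51 to 1.29) stayed above 0. The cause was not tested. With no filter on low counts, *Nppa* had 0.24 (adjusted p = 0.963 by edgeR). At this depth *Nppa*, *Nppb*, *Myl2* and *Bmp10* were below the filter on low counts.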
